A study of Homo sapiens with 15 samples.

Results

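Of the 14432 gene regions in the deposited table, 448 spanned 300 kb or more (end minus start plus 1, genome build hg19), and these long genes are described here. They were chosen by length alone, so no binding, expression or chromatin value entered the choice. They made up 3.10% of the genes and 28.4% of the bases of all regions, with a median length of 438 kb against 22.6 kb for the 13984 shorter genes. The 30 longest exceeded 1 Mb, led by PTPRD (2298 kb), DMD (2220 kb), DLG2 (2172 kb), CSMD1 (2059 kb) and LRP1B (1900 kb). A RefSeq entry was found for 447 of them, 431 of them protein coding and 15 lncRNA genes. The members just inside the limit were CACNA1A (300 kb), MGMT (300 kb) and COBL (301 kb), and the genes just outside were NUBPL (299.8 kb), ST18 (299 kb) and GHR (298 kb). Nuclear RNA replicate 1 held 0.657, 78.5 and 68.2 counts per 1000000 of CACNA1A, MGMT and COBL, and 135, 0.148 and 53.3 of NUBPL, ST18 and GHR.

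A gene of this size is almost all intron, and RNA polymerase II (RNAPII) needs hours to cross it, so its nascent transcript is long and stays on chromatin for long. Many long genes encode synaptic adhesion molecules, ion channels and receptors of neurons. PHC1 is a subunit of Polycomb repressive complex 1, which acts with PRC2, whose catalytic subunit EZH2 places the repressive mark H3K27me3, while H3K4me3 marks active promoters. The study asked where PHC1 binds RNA and chromatin.

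HEK293T T-Rex, an established human embryonic kidney line that can carry a tetracycline-controlled transgene, gave each of the 15 samples. PAR-CLIP, in which a photoreactive nucleoside fed to cells lets light crosslink RNA to protein, was made for PHC1 in 2 replicates and for RNAPII in 2 single libraries, 1 with 4-thiouridine (4SU) and 1 with 6-thioguanosine (6SG). The PHC1 cells carried a PHC1 transgene, took up 4SU at 100 uM and were pulled down with streptavidin beads. The RNAPII cells carried no transgene, and the labels give the antibody ab817 to the RNAPII C-terminal domain. Transgene, capture reagent and target thus differ together between PHC1 and RNAPII and cannot be told apart. Total nuclear RNA was sequenced in 2 replicates from cells with no transgene and no nucleoside. ChIP-seq covered PHC1 and PHC1-dFCS, each a transgene in 2 replicates, and RNAPII, EZH2, H3K27me3, H3K4me3 and Input DNA in 1 library each without a transgene. Each transgene was carried by this 1 cell line, and the labels do not say whether replicates were separate cultures, so p-values measure only how far these libraries vary, and that variation may be technical.

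PHC1 PAR-CLIP held 696186 and 698056 clusters, runs of overlapping crosslinked reads, against 667937 with RNAPII 4SU and 45259 with RNAPII 6SG. Between 52.8% and 56.0% of them lay in a gene region. The RNA libraries held 47187882 and 49626658 counted reads, and the ChIP libraries that could be decoded held 32542619 to 43071641 reads. In nuclear RNA, in CPM (counts per 1000000 counted reads), the embryonic kidney genes PAX2, EYA1 and CDH2 had 7.42 to 425. The 6 measured markers of blood, hepatocytes and keratinocytes were at most at 0.383 CPM. Of the other types, COL1A1 of fibroblasts had 1.53 and 1.55 CPM, and COL1A2 0.0212 and 0.0806. RBFOX3 of mature neurons had 9.81 and 10.3, and SLC17A7 0.233 and 0.222. MBP of glia had 32.3 and 30.6, and GFAP 1.06 and 1.17. ACTA1 of muscle had 1.29 and 0.866. Of the genes of this line also seen in neurons, NEFL had 141 and 142, INA 51.6 and 49.3, and NEFM 0.381 and 0.121. The part of these markers in the results was not tested.

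The start sites of a few members named below for cluster position or promoter marks are shown first. Each is the 250 bases before a RefSeq start (GRCh38.p14), 5′ to 3′, with each CG dinucleotide in capitals. CG-rich promoters are the usual home of H3K4me3 and, when silent, of Polycomb. AUTS2, the member with the most PHC1 clusters (chr7:69598225-69598474, plus strand), has 49 CG, a number reached by 0.205% of the 35116 RefSeq promoters. ITFG1 (chr16:47461064-47461313, minus strand), with H3K4me3 among the 5 highest of the long genes, has 31 CG. RELN (chr7:103989659-103989908, minus strand), with the highest H3K27me3 over input of the long genes, has 43.
AUTS2: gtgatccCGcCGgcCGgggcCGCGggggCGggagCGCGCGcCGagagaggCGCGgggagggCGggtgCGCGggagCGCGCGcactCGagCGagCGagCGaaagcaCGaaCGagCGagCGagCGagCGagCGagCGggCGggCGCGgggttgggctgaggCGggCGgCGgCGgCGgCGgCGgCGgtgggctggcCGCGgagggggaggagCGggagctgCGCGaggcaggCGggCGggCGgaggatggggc
ITFG1: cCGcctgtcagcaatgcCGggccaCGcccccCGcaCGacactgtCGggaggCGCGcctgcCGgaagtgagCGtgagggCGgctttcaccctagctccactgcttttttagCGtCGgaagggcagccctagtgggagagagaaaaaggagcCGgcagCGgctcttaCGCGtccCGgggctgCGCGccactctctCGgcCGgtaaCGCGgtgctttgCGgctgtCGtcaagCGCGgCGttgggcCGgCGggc
RELN: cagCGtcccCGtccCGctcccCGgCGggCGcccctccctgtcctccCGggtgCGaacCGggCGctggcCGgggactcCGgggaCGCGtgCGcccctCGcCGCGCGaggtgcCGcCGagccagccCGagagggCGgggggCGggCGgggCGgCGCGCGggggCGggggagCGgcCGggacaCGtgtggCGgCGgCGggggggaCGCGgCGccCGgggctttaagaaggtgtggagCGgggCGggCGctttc

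ROBO1, NRXN3 and MKLN1 are shown with 2 starts each, because their clusters began far inside the region. The outer start of ROBO1 (chr3:79767999-79768248, minus strand) has 9 CG and the inner one (chr3:79019460-79019709), 748.5 kb downstream, has 12. The outer start of NRXN3 (chr14:78170123-78170372, plus strand) has 3 CG and the inner one (chr14:79279130-79279379), 1109 kb downstream, has 24. The outer start of MKLN1 (chr7:131109844-131110093, plus strand) has 19 CG and the inner one (chr7:131327626-131327875), 217.8 kb downstream, has 24. At least 24 CG were found in 23.7% of RefSeq promoters and at least 9 in 54.1%.
ROBO1 outer: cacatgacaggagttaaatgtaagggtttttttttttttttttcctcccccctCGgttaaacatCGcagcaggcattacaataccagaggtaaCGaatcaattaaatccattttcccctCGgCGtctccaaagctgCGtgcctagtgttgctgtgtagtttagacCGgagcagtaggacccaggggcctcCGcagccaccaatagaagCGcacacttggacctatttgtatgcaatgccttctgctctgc
ROBO1 inner: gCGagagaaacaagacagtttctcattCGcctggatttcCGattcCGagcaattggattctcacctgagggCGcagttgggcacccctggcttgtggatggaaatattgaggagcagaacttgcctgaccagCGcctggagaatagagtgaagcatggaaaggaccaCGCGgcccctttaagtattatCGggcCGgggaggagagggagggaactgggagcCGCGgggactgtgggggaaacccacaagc
NRXN3 outer: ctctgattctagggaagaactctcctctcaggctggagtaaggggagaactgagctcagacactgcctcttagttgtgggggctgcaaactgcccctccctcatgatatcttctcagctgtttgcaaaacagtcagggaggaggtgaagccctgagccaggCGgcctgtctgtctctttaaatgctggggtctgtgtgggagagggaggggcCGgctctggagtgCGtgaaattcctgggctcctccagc
NRXN3 inner: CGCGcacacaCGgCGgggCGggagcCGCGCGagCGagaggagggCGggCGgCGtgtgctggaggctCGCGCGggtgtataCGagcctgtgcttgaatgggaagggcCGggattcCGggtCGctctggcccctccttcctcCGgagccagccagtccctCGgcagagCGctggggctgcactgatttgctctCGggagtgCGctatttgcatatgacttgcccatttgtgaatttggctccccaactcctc
MKLN1 outer: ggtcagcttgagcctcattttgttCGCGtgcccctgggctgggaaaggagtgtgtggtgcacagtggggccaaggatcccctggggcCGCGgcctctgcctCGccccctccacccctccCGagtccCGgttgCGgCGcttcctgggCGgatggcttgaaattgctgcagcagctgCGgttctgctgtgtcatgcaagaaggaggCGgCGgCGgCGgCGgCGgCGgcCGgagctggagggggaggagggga
MKLN1 inner: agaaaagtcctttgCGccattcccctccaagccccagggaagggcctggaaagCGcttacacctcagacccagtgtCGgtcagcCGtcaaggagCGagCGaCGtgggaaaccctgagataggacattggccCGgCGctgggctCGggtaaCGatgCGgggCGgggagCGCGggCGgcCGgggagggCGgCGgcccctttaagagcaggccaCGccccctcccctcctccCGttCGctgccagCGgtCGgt

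The long genes were transcribed in large part and carried many PHC1 clusters, thinly spread. Their median nuclear RNA level was 51.8 and 51.5 CPM in the 2 replicates, against 16.2 and 16.2 for shorter genes. In bulk RNA, fewer expressing cells and less RNA per cell cannot be told apart. Per kb of region the order turned, at 0.108 and 0.106 against 0.607 and 0.612 CPM. Of the 448, 37 had under 1 CPM, 104 had 1 to 10, 123 had 10 to 100 and 184 had 100 or more. They held 37923 and 38699 PHC1 clusters, 36990 RNAPII 4SU clusters and 1696 RNAPII 6SG clusters, or 10.2%, 10.4%, 9.88% and 7.10% of all clusters in genes. Each long gene had at least 1 PHC1 cluster in replicate 1 and all but LINC01088 in replicate 2, whereas 3531 and 3743 shorter genes had none. The median per long gene was 19 and 18 PHC1 clusters, 26.5 with 4SU and 1 with 6SG. Clusters were sparser than in shorter genes, at 15.8 and 16.1 per 100 kb over all long genes against 55.3 and 55.1.

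AUTS2, which encodes a neurodevelopmental regulator found in a variant PRC1 (Entrez 26053, chromosome 7, bases 69063905 to 70257885), had the most PHC1 clusters, 934 and 928, with 550 of RNAPII 4SU and 16 of 6SG. FAF1, a ubiquitin-binding adaptor (Entrez 11124), followed with 853 and 920 PHC1 clusters. PARD3, a scaffold of cell polarity, had 826 and 850, and CUX1, a homeobox transcription factor, had 817 and 784. ZFAND3, CAMTA1, GPHN and FRMPD4 had between 575 and 661 in each replicate. With RNAPII 4SU these 8 members, chosen for their PHC1 clusters, had from 204 in ZFAND3 to 550 in AUTS2.

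Corrected for length, the densest PHC1 binding was in ZFAND3, with 185 and 197 clusters per 100 kb, then CUX1 (175 and 168), EXT1 (165 and 172), FAF1 (164 and 177) and KMT2C (160 and 163). EXT1 builds heparan sulfate, and KMT2C methylates H3K4. The members with the most nuclear RNA per kb were others in part. PCDH7, a protocadherin, and CADM1, an adhesion molecule, led with 2.93 and 2.96, and 2.96 and 2.92, CPM per kb, followed by ERC1 (2.71 and 2.77) and the cytoskeletal linker DST (2.46 and 2.56). EIF4G3, NFIA, TRIO, EXT1 and CADM1 were among the 10 highest both in RNA per kb and in PHC1 cluster density. Across the 448 genes, nuclear RNA and the number of clusters had a Spearman correlation of 0.84 with PHC1 in each replicate and 0.92 with RNAPII 4SU, values that share gene length and depth.

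PHC1 clusters were crowded towards the 5′ end of long genes, and RNAPII clusters were not to the same degree. Position was measured in the 156 members with at least 50 clusters in each PHC1 library and in 4SU, on the strand that held most 4SU clusters. That strand was the RefSeq strand in each of the 128 whose RefSeq strand could be assigned, and the others were not checked. Each gene was divided into 10 equal bins from 5′ to 3′. The first bin held 19.4% of the PHC1 clusters in each replicate, and the last 4.70% and 4.28%. With RNAPII 4SU the first bin held 14.1% and the last 10.2%, and with 6SG 12.0% and 12.6%. Before the gene's midpoint lay 67.6% (95% Wilson interval 67.1 to 68.1%) and 68.2% (67.7 to 68.7%) of the 32522 and 33389 PHC1 clusters. There lay 53.5% (52.9 to 54.1%) of 30740 clusters with 4SU and 48.2% (45.5 to 50.9%) of 1321 with 6SG, and these intervals cover counting error only. Both PHC1 libraries thus lay above both RNAPII libraries, and the exact 2-sided permutation test gave p = 0.333, the smallest that 2 against 2 libraries allow.

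**Figure D1:**
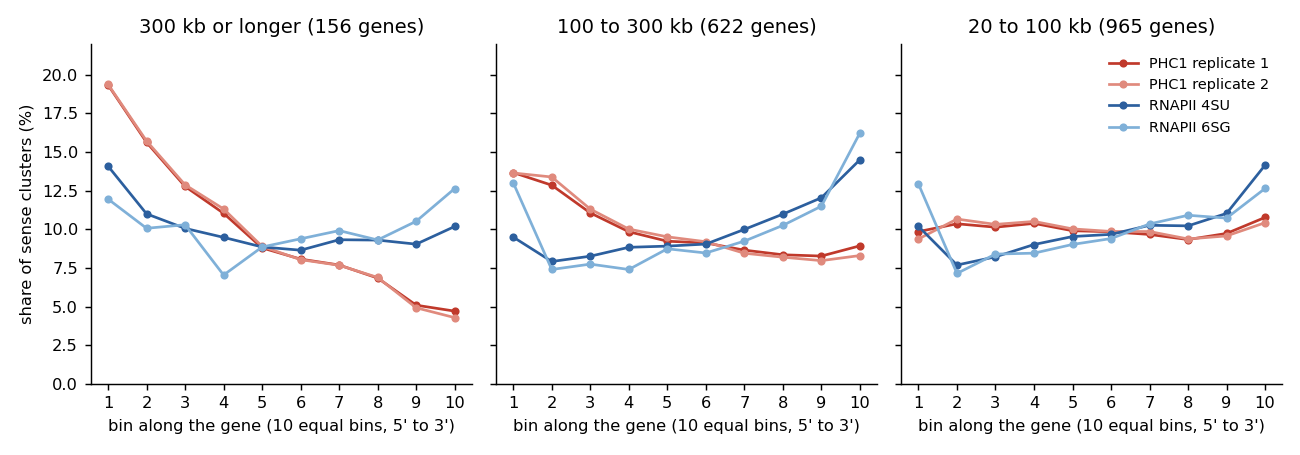
Share of sense-strand clusters (y axis, percent) in each of 10 equal bins of the gene from 5′ to 3′ (x axis) for genes of 300 kb or longer, 100 to 300 kb and 20 to 100 kb, with 1 line per PAR-CLIP library. In the long genes the PHC1 lines fall from 19.4% to under 5% while the RNAPII lines stay between 7.04% and 14.1%. In the shortest class the PHC1 lines stay between 9.34% and 10.8% and the RNAPII lines between 7.15% and 14.2%.

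Gene by gene, the median share before the midpoint was 70.9% and 71.5% for PHC1 and 54.4% for 4SU, while PHC1 replicates differed by a median of 2.38 percentage points. The 4SU share lay below both PHC1 replicates in 137 of the 156 members (87.8%) and above both in 12. Over the 1796 genes of any length with as many clusters, 70.6% lay below both and 19.5% above both. In genes of 100 to 300 kb the median shares were 56.9% and 58.3% for PHC1 and 43.2% for 4SU (622 genes), and in genes of 20 to 100 kb 50.5%, 50.5% and 43.9% (965 genes). Among the long genes, the 100 of 300 to 500 kb had medians of 69.3% and 69.9% for PHC1 and 51.5% for 4SU, and the 56 of 500 kb and more had 75.5%, 79.4% and 59.6%. No test of the length classes was made.

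The same gradient was seen by distance from the start. In the first 50 kb PHC1 had 80.0 and 82.4 clusters per 100 kb, from 100 to 150 kb 59.7 and 60.7, and from 250 to 300 kb 33.1 and 33.3. The last 50 kb of these genes held 21.7 and 20.3, or 0.27 and 0.25 of the first 50 kb. With RNAPII 4SU the values were 54.3, 41.0 and 40.0 clusters per 100 kb, and 43.3 in the last 50 kb.

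LRRTM4, a postsynaptic adhesion protein, had 98.1% and 96.7% of its PHC1 clusters before the midpoint, and 89.7% with 4SU. LRP1B, a receptor of the LDL receptor family, had 95.8% and 96.7% against 77.1%, PARD3B 96.9% and 93.9% against 83.2%, and NKAIN2 94.7% and 95.8% against 83.6%. TMTC2 had the widest gap of these 5, with 97.2% and 93.5% for PHC1 and 57.6% for 4SU. Of the members with the most clusters, AUTS2 had 74.4% and 73.0% against 60.2%, PARD3 83.9% and 84.1% against 66.6%, and CUX1 61.9% and 62.8% against 45.2%. Of these, FAF1 differed least, with 54.8% and 54.4% against 51.6%.

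**Figure D2:**
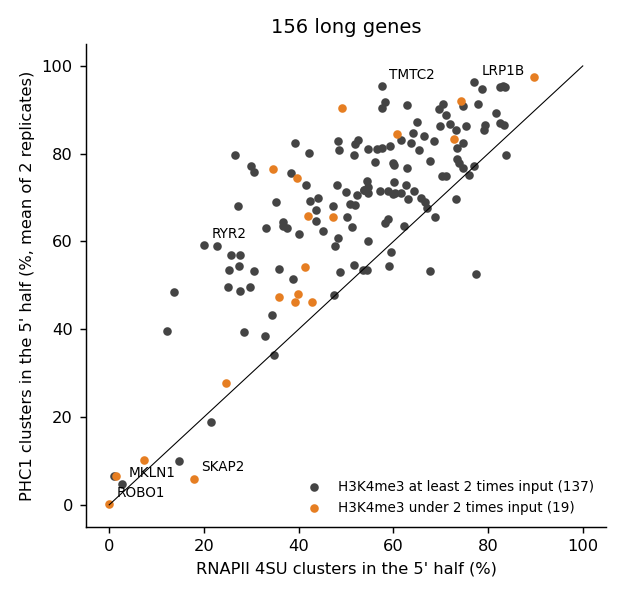
Share of PHC1 clusters before the gene's midpoint (y axis, percent, mean of 2 replicates) against the share of RNAPII 4SU clusters (x axis, percent) for 156 long genes, coloured by H3K4me3 at the listed start, with the line of equality. Most genes lie above the line, and ROBO1, MKLN1 and SKAP2 lie at the lower left.

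A smaller group had the opposite layout in every deep library. The members named here were chosen for the lowest PHC1 shares before the midpoint. ROBO1, a receptor for SLIT guidance cues (Entrez 6091, chromosome 3, bases 78646388 to 79817059), had 0.27% and 0.24% of PHC1 clusters and 0% of 4SU clusters before the midpoint. MKLN1, a subunit of the CTLH ubiquitin ligase, had 5.83%, 3.45% and 2.65%. SKAP2 had 6.52%, 5.45% and 17.8%, PTPRD 5.45%, 7.69% and 0.99%, and the presynaptic adhesion protein NRXN3 8.24%, 5.00% and 1.35%. Only 5% of ROBO1 clusters lay before 758.6 and 759.9 kb from the outer end with PHC1 and before 758.8 kb with 4SU, beside the inner RefSeq start shown above at 748.5 kb. In MKLN1 this point was at 132.9 and 222.1 kb with PHC1 and 218.2 kb with 4SU. The inner start at 217.8 kb lies close before the points of PHC1 replicate 2 and 4SU, and replicate 1 began before it. In NRXN3 it was at 566 and 1032 kb with PHC1 and 1110 kb with 4SU. The inner start at 1109 kb lies close before the 4SU point alone, and both PHC1 replicates began before it. The spacing of starts was taken within GRCh38.p14 and cluster positions within hg19, and whether the outer RefSeq start is the end of the hg19 region was not compared.

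**Figure D3:**
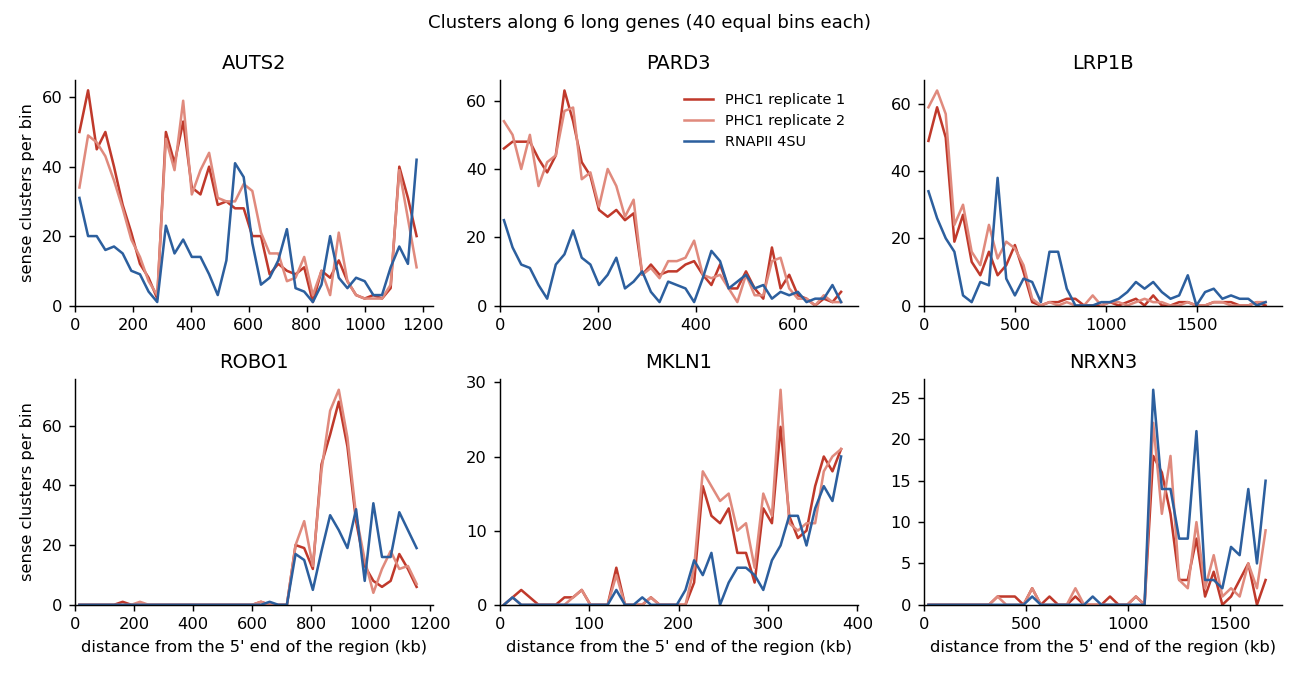
Number of sense-strand clusters (y axis) in 40 equal bins along AUTS2, PARD3, LRP1B, ROBO1, MKLN1 and NRXN3, against distance from the 5′ end of the region in kb (x axis), with 1 line for each PHC1 replicate and 1 for RNAPII 4SU. AUTS2, PARD3 and LRP1B have most PHC1 clusters early, and ROBO1 and NRXN3 have few in the first 500 kb.

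Altogether 14 members had fewer than 5% of their clusters in the first 75 kb in both PHC1 libraries and in 4SU, a limit set after the values were seen. Of these, 10 had H3K4me3 under 2 times the input at the listed start. Among all 156, the 19 without such H3K4me3 had a median of 3.33% and 2.70% of PHC1 clusters and 2.24% of 4SU clusters in the first of the 10 bins. The 137 with it had 20.5%, 20.8% and 14.4%. Not all of the 14 late members lacked H3K4me3. The 4 others included BAZ2B and MKLN1, with H3K4me3 at 12.0 and 6.20 times the input. For CCNY, BAZ2B and ROBO1 an inner RefSeq start lay at most 25 kb before the point with 5% of clusters before it. This held in both PHC1 libraries and in 4SU. Of the 14, 12 had 2 or more RefSeq starts, as had 165 of the 364 long genes with a RefSeq promoter. SKAP2 had 1 start, and STK3 had none listed. Only 4 of the 14, CCNY, BAZ2B, ROBO1 and MKLN1, had an inner start at most 25 kb before the median point of the 2 PHC1 libraries and 4SU.

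The next comparison set PHC1 PAR-CLIP against nuclear RNA, gene by gene, as summed cluster coverage and reads, each in CPM scaled with TMM factors (for clusters, per 1000000 of summed coverage). Of the 448 long genes 420 had 5 CPM in at least 2 libraries and were tested, and 28 did not. PHC1 was higher in 199 and lower in 141 at an adjusted p under 0.05 (limma, Benjamini-Hochberg over 9362 genes). Over all genes tested 35.5% were called higher and 47.1% lower (82.5% in all), and the median log2 difference was -0.33 against 0.25 in the long genes. The 0.25 includes members tested only through PHC1, as described below. In the 307 long genes of at least 10 CPM of RNA the median was -0.35. With library totals alone the differences moved down, to a median of -0.72 over all genes and -0.12 in the long genes, and the split became 156 higher and 172 lower. It also turned when 1 PHC1 library was left out and fewer genes could be tested, to 145 higher and 171 lower of 336 without replicate 1 and 136 and 171 without replicate 2, with medians of -0.16 and -0.17. Clusters were summed over the whole region, and whether the RNA counts include introns is not given in the sources used here.

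Many of the higher calls were set by the filter. A member under 5 CPM in both RNA libraries was tested only if both PHC1 libraries reached that level, and of the 85 such members 84 were called higher. Of the other 335, 115 were higher and 141 lower. Below 1 CPM all 25 tested members had passed in this way, and from 1 to 10 CPM 60 of 88 had. The remaining 28 of that class had 19 higher and 2 lower. In all tested genes under 10 CPM 69.1% were higher and 17.9% lower. From 10 CPM up, 96 of 307 long genes were higher and 139 lower, against 29.1% and 52.6% of all such genes, a share near the background. Nuclear RNA is one side of the comparison, so these classes are descriptive.

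The strand of the clusters differed along the same classes. In members under 1 CPM, 50.0% (95% Wilson interval 43.7 to 56.3%) of 242 PHC1 clusters in replicate 1 and 52.0% (45.1 to 58.7%) of 204 in replicate 2 lay on the gene's RefSeq strand. These intervals pool the clusters of 28 genes and cover counting error only, not the variation between genes or libraries. From 1 to 10 CPM the shares were 49.6% and 48.5%, so sense and antisense clusters were about equally many. They were 71.8% and 72.7% from 10 to 100 CPM and 95.7% and 96.0% from 100 up. With RNAPII 4SU they were 57.4%, 46.4%, 89.5% and 97.4% in the same 4 classes. Cluster density in the lowest class was 1.71 and 1.52 per 100 kb with PHC1, against 34.2 and 35.1 in the highest. When only clusters on the majority 4SU strand were counted, the long genes had 164 higher and 159 lower of 404, with 35% and 47.5% of all genes. That strand was the RefSeq strand in 286 of the 336 long genes where both were known.

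**Figure D4:**
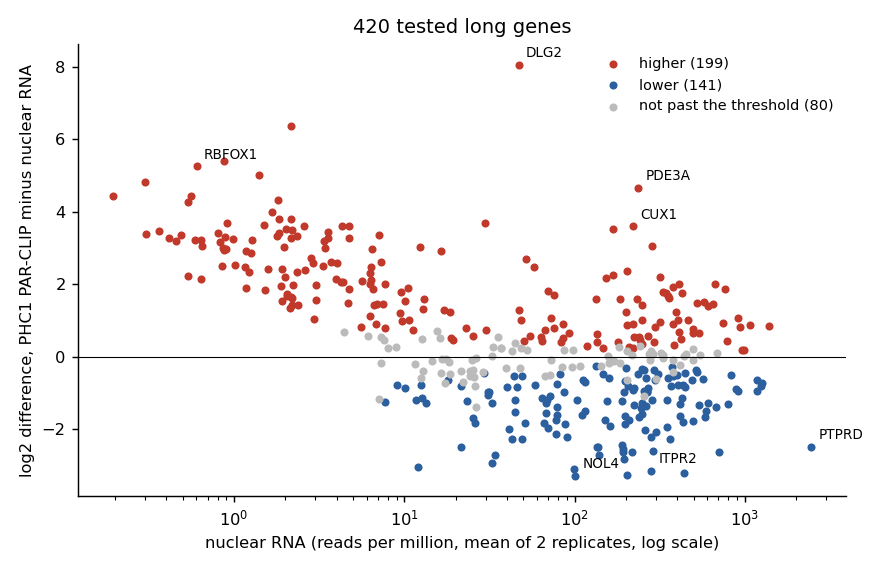
Log2 difference of PHC1 PAR-CLIP minus nuclear RNA (y axis) against nuclear RNA in CPM (x axis, log scale) for the 420 tested long genes, 1 point per gene, coloured by the limma call. Nearly all points left of 10 CPM lie above 0, and points right of it lie on both sides.

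The well-transcribed members that follow were named for their number or density of PHC1 clusters. That choice favours a PHC1 value above RNA, so these differences add no support. CUX1 had 2319 and 2447 CPM with PHC1 and 198 and 192 in nuclear RNA. Its log2 difference was 3.60 ± 0.06 (SE, adjusted p = 0.00014). The calmodulin-binding transcription activator CAMTA1 had 1712 and 1727 against 148 and 148, a difference of 3.53 ± 0.05. ZFAND3 differed by 3.07, PARD3 by 2.02, KMT2C by 2.00, FAF1 by 1.87 and GPHN, the scaffold of inhibitory synapses, by 1.47. AUTS2 had 1652 and 1814 with PHC1 and 960 and 926 in RNA, a difference of 0.88 ± 0.07.

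The 10 largest differences had other features. DLG2, a postsynaptic scaffold (difference 8.06), and the phosphodiesterase PDE3A (4.67) rested on single deep sites, described below. In IL1RAPL1 1 cluster held 83.0% and 62.9% of the PHC1 coverage, in SORCS3 79.6% and 50.1% and in COL22A1 63.9% and 41.9%. RNAPII 4SU had its deepest IL1RAPL1 cluster at the same place (chromosome X, 29000963 to 29000996, minus strand), with 96.3% of its coverage. IL1RAPL1 (6.38), SORCS3 (5.41), RBFOX1 (5.26), CALN1 (5.02), COL22A1 (4.82), CACNA1A (4.44), NLGN4X (4.44) and TMEM132D (4.34) all had under 3 CPM of nuclear RNA, so they were tested only through PHC1. Their values depend on the pseudocount of 1. With 0.5 COL22A1 was at 5.53 and NLGN4X at 5.22, and with 5 they were at 2.92 and 2.51. RBFOX1, a splicing regulator of neurons, had 49.8 and 66.5 CPM with PHC1 and 0.67 and 0.39 in RNA. Of its 33 and 36 PHC1 clusters 17 and 22 lay on the RefSeq strand.

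PHC1 was lowest against RNA in NOL4, with 10.8 and 6.40 CPM and 90.7 and 87.8 in RNA, a difference of -3.27 ± 0.26 (adjusted p = 0.00071). HS3ST4, a heparan sulfate sulfotransferase, had 16.3 and 19.5 against 173 and 188 (-3.26), and the ephrin receptor EPHA5 45.5 and 36.8 against 400 and 377 (-3.22). The IP3 receptor ITPR2 had 27.9 and 27.1 against 252 and 247 (-3.14). On its majority strand ITPR2 had 6 and 4 PHC1 clusters and 146 with RNAPII 4SU. SLC4A4, LINC01088, COL21A1, MID1, CLSTN2 and GUCY1A2 followed, between -3.10 and -2.70. PTPRD, the member with the most nuclear RNA in all (2600 and 2327 CPM), had 79 and 90 PHC1 clusters and a difference of -2.48 ± 0.31. Without RNA replicate 1 or 2 it did not pass, at -2.39 and -2.56. A plus-strand cluster, opposite to the gene, held 74.8% of its PHC1 coverage in replicate 1. In replicate 2 the 2 deepest clusters, at the same place and on the plus strand, held 14.4% and 13.1%.

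By function, 173 of the long genes fell in 9 lists. Their counts stand beside 35.5% higher and 47.1% lower over all tested genes, and beside 69.1% higher in genes under 10 CPM. Members under 5 CPM in both RNA libraries, such as CACNA1A, RBFOX1 and IL1RAPL1, were tested only through PHC1. Of the 85 such long genes 84 were called higher, and how many each list holds was not counted. The list counts and medians can thus include calls set by the filter. Of 21 transcription and chromatin regulators 20 were tested, of which 10 were higher and 6 lower (median 0.37), with 3 of the 21 under 10 CPM. KMT2C (2.00), AUTS2 (0.88) and NFIA (0.82) were higher than RNA and MECOM (-0.64) lower, but NFIA did not pass by cluster number (0.12). Of 8 tested RNA-binding and splicing regulators 6 were higher and 2 lower (median 1.31), and 3 of the 9 in the list had under 10 CPM. MSI2, a translational regulator, was at 1.60, RBMS3 at -1.62 and EIF4G3 at 1.07, the last not past the threshold by cluster number (0.19). Of 24 tested ion channels and neurotransmitter receptors 16 were higher and 5 lower (median 1.33), but 16 of the 29 members had under 10 CPM, and of the 4 best transcribed ITPR2, KCNB2 (-2.07) and CACNA2D1 (-0.64) were lower and RYR2 (1.76) higher. Of 30 tested adhesion and synapse organisers 16 were higher and 12 lower (median 0.22), with 11 of 31 under 10 CPM. PTPRK was at -1.29, and CADM1 and ROBO1 were each at 0.20, but with library totals alone they were at -0.16 and -0.17. Without RNA replicate 1 or 2 neither passed, CADM1 at 0.21 and 0.18 and ROBO1 at 0.20 and 0.19. Over all genes the median was -0.33. The lists were chosen with results of these data known, and their counts are descriptions.

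All 8 members of the cadherin list were tested, 3 higher and 5 lower (median -0.72), with 3 under 10 CPM, among them PCDH7 at -0.71 and FAT3 at -1.64. PCDH11X shares sequence with PCDH11Y, and both are uncertain. Of 15 tested cytoskeletal genes 5 were higher and 6 lower (median -0.08), and 3 of the 16 had under 10 CPM, with PARD3 at 2.02, DST at -0.80 and the dystrophin relative UTRN at -1.34. Of 28 tested genes of phosphodiesterases, kinases and cAMP signalling 15 were higher and 8 lower (median 0.62), but 12 of the 30 had under 10 CPM, and over all tested genes 35.5% were higher and 47.1% lower. The adenosine kinase ADK had 1253 and 1352 CPM against 469 and 453, a difference of 1.50. The guanine nucleotide exchange factor TRIO was at 0.44 but did not pass with library totals alone (0.074). DOCK4 (0.05, adjusted p = 0.36) and PLCB1 (0.04, adjusted p = 0.80) did not pass limma's test. Of 25 tested trafficking, ubiquitin and metabolism genes 11 were higher and 13 lower (median -0.35), and 6 of the 26 had under 10 CPM, with EXT1 at 1.51 and EXOC4 at -1.27. Of 11 genes of common fragile sites, which break under replication stress, 8 were higher and 3 lower (median 0.81), with 2 of the 11 under 10 CPM. LRP1B (-0.93) and FHIT (-0.89) were lower, and RORA (0.33) higher. RORA did not pass without RNA replicate 1 or 2 (0.36 and 0.30) and was at -0.030 with library totals alone.

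Against RNAPII PAR-CLIP, with 4SU and 6SG as the control pair, none of the 415 tested long genes passed (0% of 8435 genes over the whole table). This comparison and the previous one share the PHC1 libraries. By unadjusted limma p under 0.05, 55 long genes were higher and 18 lower, where 14.2% and 7.68% of all genes were. edgeR on the number of clusters called 100 higher and 68 lower of 388, with 18.3% and 15.7% of all genes, and DESeq2 called 1 higher and 0 lower, with 0.0264% and 0.0396%. The RNAPII pair varied far more than the PHC1 replicates, with a robust SD of 1.41 against 0.25 on the log2 scale. With 4SU alone as control, assumed to vary like the PHC1 replicates, 176 of 406 were higher and 82 lower, against 33.7% and 28% of all genes.

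The smallest p values belonged to PARD3, with 2228 and 2391 CPM for PHC1, 440 for 4SU and 302 for 6SG, a log2 difference of 2.66 ± 0.30 (limma adjusted p = 0.15). ZFAND3 (2.61), EXT1 (2.33), GNAQ (1.99) and CCNY (1.78) came next. These members were chosen by their p in this comparison, so both PHC1 libraries lying above both RNAPII libraries in each adds no support. The share of all genes with this separation was not counted. On the lower side MID1, a ubiquitin ligase, had 23.4 and 22.1 for PHC1, 122 for 4SU and 179 for 6SG (-2.65 ± 0.43, limma adjusted p = 0.15). RALGAPA2 (-2.34), KIF16B (-1.80), SCAPER (-1.41) and ATP9B (-1.41) followed. RNAPII against nuclear RNA likewise gave 0 calls among 354 long genes (0% of 8744 genes) by limma, and it shares libraries with both comparisons above. By unadjusted limma p under 0.05, 38 were higher and 40 lower, against 11.4% and 12.4% of all genes. With 4SU alone 147 of 336 were higher and 155 lower, against 40.5% and 51% of all genes. The smallest p values on the higher side included those of RPTOR (2.30), DOCK3 (1.87) and KMT2C (2.32), and on the lower side those of HS3ST4 (-4.39) and PCDH7 (-1.95), none past the threshold.

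A few members owed their coverage to 1 site. In DLG2, 1 cluster on chromosome 11 held 54.6% of PHC1 coverage in replicate 1 (85195044 to 85195306) and 63.4% in replicate 2 (85195057 to 85195087). It lay on the plus strand, while DLG2 is on the minus strand. A second cluster of replicate 1 at the same place (85195044 to 85195136), on the minus strand, held a further 45.2%. DLG2 values were far apart, 26559 and 4842 CPM, and by cluster number the difference from RNA was 0.87 in place of 8.06. Without RNA replicate 1 or 2 DLG2 did not pass, at 8.11 and 8.01. In PDE3A the deepest cluster held 52.2% and 30.9%, spanning 20704356 to 20704492 and 20704392 to 20704427 of chromosome 12, and a second cluster on the other strand (20704383 to 20704483) held a further 47.3% in replicate 1. By cluster number PDE3A turned from 4.67 to -2.16, and it did not pass without any 1 of the 4 libraries, at 3.86 and 5.50 without PHC1 replicate 1 and 2 and 5.04 and 4.30 without RNA replicate 1 and 2. Its nuclear RNA also differed between replicates, at 295 and 177 CPM. RNAPII 4SU had its deepest clusters at the same places, at 85195163 to 85195181 in DLG2 and 20704357 to 20704403 in PDE3A.

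Among members with at least 100 clusters, RYR2, the calcium channel of the sarcoplasmic reticulum, had 81.5% of its PHC1 coverage in 1 cluster in replicate 1 (chromosome 1, 237766339 to 237766609) and 19.6% in replicate 2 (237766396 to 237766451). Without the deepest cluster its difference from RNA was 0.77 in place of 1.76 and did not pass, nor did it without RNA replicate 1 (1.73) or 2 (1.78). RNAPII had its deepest RYR2 clusters in the same stretch, at 237766577 to 237766588 with 4SU and 237766509 to 237766539 with 6SG. Their mean coverage was 10872.8 and 13353.5, against 1799 and 845 in the PHC1 clusters. By share of PHC1 coverage ROR1 followed RYR2 with 32.9% and 37.6%, PITPNC1 with 22.7% and 27.8%, ROBO2 with 20.8% and 23.3%, and UTRN with 18.7% and 6.97%. In AUTS2 the deepest cluster held 1.54% and 1.12%. Of the PHC1 clusters in long genes, 63.6% and 63.4% met a cluster of the other replicate on the same strand by at least 1 base, against 67.6% and 71.7% in shorter genes. With RNAPII 4SU 21.6% and 19.2% overlapped, against 31.7% and 30.5%.

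At their promoters a larger share of the long genes carried Polycomb marks than in the table as a whole. H3K27me3 was at least 2 times the input at 44 of 448 starts (9.82%), against 1.86% over all genes, and EZH2 at 34 (7.59%) against 2.06%. H3K4me3 reached 2 times the input at 305 (68.1%) against 62.5%, and RNAPII at 177 (39.5%) against 47.5%. These are ratios of single libraries with no replicate and no test, and a start had a median of 19.5 reads for H3K27me3, 20 for EZH2, 132 for H3K4me3, 27 for RNAPII and 21 for the input. At 3 times the input, 7 long genes (1.56%) kept H3K27me3, against 0.21% of all genes.

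**Figure D5:**
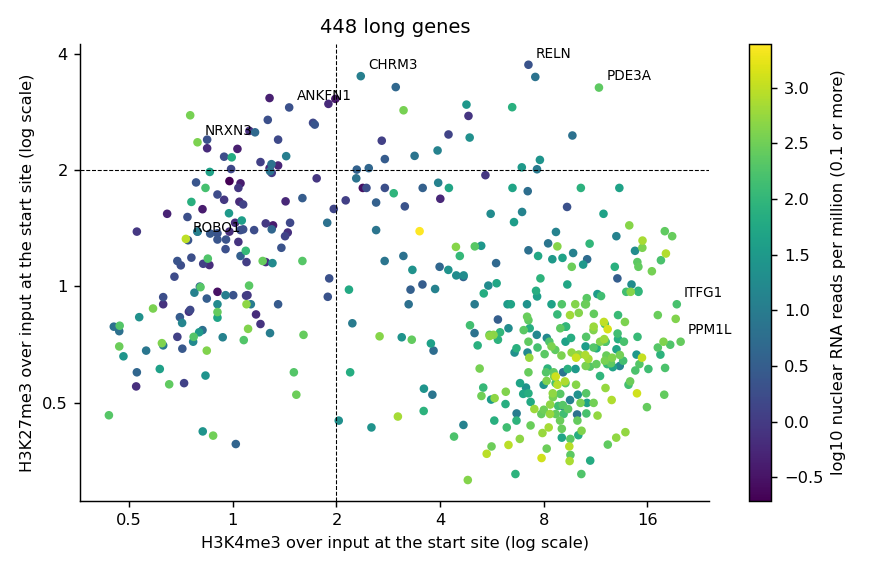
H3K27me3 over input (y axis, log scale) against H3K4me3 over input (x axis, log scale) at the start sites of the 448 long genes, 1 point per gene, coloured by nuclear RNA, with dashed lines at 2 times the input. Genes with much RNA gather at high H3K4me3 and low H3K27me3, while RELN, CHRM3 and PDE3A lie at the top.

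H3K4me3 without H3K27me3 marked 284 long genes, whose median RNA was 143 and 140 CPM and whose median number of PHC1 clusters was 46.5 and 50. Both marks were at 21 (7.71 and 7.13 CPM), H3K27me3 without H3K4me3 at 23 (1.67 and 1.49), and neither at 120 (2.74 and 2.96). In this order, the classes held 63.4%, 4.69%, 5.13% and 26.8% of long genes. Of shorter genes they held 61.8%, 0.53%, 1.07% and 36.6%, with median RNA in replicate 1 of 56.2, 1.50, 0.0636 and 0.191 CPM. The median PHC1 cluster number of long genes in the last 3 classes was 9 and 11, 8 and 9, and 10 and 9.5. Promoters matched to RefSeq had a median of 20 CG with H3K4me3 alone (236 genes), 22 with both marks (19), 10.5 with H3K27me3 alone (16) and 7 with neither (93), against 11 over all RefSeq promoters. Across the 448 genes nuclear RNA had a Spearman correlation of 0.56 with H3K4me3 and -0.56 with H3K27me3, ratios that share the input. In all, 26 members had 100 or more CPM of RNA and no H3K4me3 at the listed start, led by ROBO1, at 974 and 964 CPM with H3K4me3 at 0.73 times the input. They were 24 of the 120 with neither mark, against 104 of 5119 such shorter genes. The others were 2 of the 23 with H3K27me3 alone, against 1 of 150.

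RELN, the extracellular matrix protein reelin (Entrez 5649, chromosome 7), had the highest H3K27me3 over input, 50 reads against 12 of input or 3.75 times, with EZH2 at 3.57 and H3K4me3 at 7.22 times. The muscarinic receptor CHRM3 had 109 reads and 3.50 times, NELL1 3.49, THSD7B 3.28 and PDE3A 3.27. EZH2 was highest at PDE3A (50 reads, 5.12 times), SORCS3 (4.17), RELN (3.57), ADGRL3 (2.98) and KCNQ3 (2.82). RNA was low at RELN (2.08 and 2.24 CPM), SORCS3 and KCNQ3, but ADGRL3, an adhesion receptor, had 437 and 434 and PDE3A 295 and 177. H3K4me3 was highest at PPM1L (332 reads, 20.0 times), ITFG1 (19.5), KMT2C (19.3), FNDC3B (18.9) and MYO1D (18.6), with H3K27me3 between 0.71 and 1.35. RNAPII was highest at LOC643339 (7.79), TMEM117 (6.95), FNDC3B (6.85), ASCC3 (6.44) and PTK2 (6.39).

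PHC1 itself was hardly above the input at long genes in the authors' pooled column of 2 replicates, which carries no SD. The median ratio was 0.99 against 1.01 in shorter genes, and 3 long genes (0.670%) reached 2 times the input, against 0.561% of all genes. They were SEMA6D (2.43), a semaphorin, ANKFN1 (2.33) and LTBP1 (2.05), and GRIA4 (1.98) and PTK2 (1.91) came next. ANKFN1 and GRIA4 had H3K27me3 at 2.91 and 2.62 times the input, the other three at 1.17 to 1.44. PHC1-dFCS, a form of PHC1 by its label, was at least 2 times the input at 22 (4.91%), against 3.42% of all genes. It was above PHC1 at 375 of 448 starts (83.7%), against 79.4% of all genes, with a median ratio of 1.22 against 1.19 in shorter genes. Among members with above-median PHC1 the ratio was highest at ASCC3 (2.08), RYR2 (1.91), GRIN2B (1.89), HPSE2 (1.85) and ARHGAP42 (1.84). It was lowest at LINC00907 (0.61), OTUD7A (0.66), BANK1 (0.67), ANKFN1 (0.73) and FER (0.79).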

How the data were processed

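The deposited table of nuclear RNA holds counts per gene, and 1 further value column was not used. Values of the ChIP table deposited for the start sites are a score, by the authors a scaled read number at the transcription start minus the input, from which reads were decoded (tolerance 1e-08). PHC1 and PHC1-dFCS joined 2 replicates in 1 column. Deposited cluster files give a signal, the mean coverage per base. Per the submitters' processing notes, hg19, Bowtie 0.12.7, TopHat2 2.0.11, Bowtie2 2.2.3 and SAMtools 0.1.19 were used. The cluster caller, the RNA counter and the window at the start are not given in the sources used here.

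Each cluster went to the region holding its midpoint, and no regions overlap. RefSeq lists other genes inside 408 of the 447 matched members, whose RNA cannot be set apart. Summed coverage and RNA counts were compared with limma 3.58.1 (trend, robust) on log2 of the TMM-scaled CPM plus a pseudocount of 1, in genes with 5 CPM in at least 2 libraries, with Benjamini-Hochberg adjustment over all genes and a threshold of 0.05, 2-sided. A lone control library was assumed to vary like the other group. edgeR 4.0.16 and DESeq2 1.42.0 were run on cluster numbers. Levels of nuclear RNA given by themselves are CPM without TMM factors. The fits were tested on simulated data.

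The members and gene lists were chosen with earlier results of these data known. Named genes are the longest members and those nearest the limit. They also include the extremes of each comparison, of RNA per kb, of cluster number, density and position and of each ChIP ratio, and the members of each list highest in RNA, of which not all are described. Genes at the limits set after seeing the data are marked as such. Alternatives covered pseudocount, filter, scaling, strand, cluster number, the deepest cluster, assignment, single libraries and the replicate block.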

Additional observations from a re-analysis of the deposited data

How the results depend on the processing

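The counts of long genes higher and lower against nuclear RNA stayed within 1.5 times of 199 and 141 under every planned setting. Leaving out 1 library gave 136 to 170 higher and 114 to 171 lower, with more lower than higher without either PHC1 replicate (336 tested) and more higher without either RNA replicate (412 tested). With the replicate number as a block they were 193 and 144, and the numbers did not pair the libraries (correlation of deviations 0.036). Limiting the count to members of at least 10 CPM, added after seeing the data, gave 96 higher, and 80 with sense clusters alone.

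Of 95 named genes past the threshold, 9 changed sign in some setting and 23 lost the call in some setting, and the cause was not tested. By cluster number CADM1 was at -0.085, CSMD1 at -0.099, ERC1 at -0.29, MYO1D at -0.054, PDE3A at -2.16 and ROBO1 at -0.19. With library totals alone CADM1 was at -0.16, ROBO1 at -0.17 and RORA at -0.030. With sense clusters CHRM3 was at -0.67, CSMD1 at -0.24 and DMD at -0.096.

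Against RNAPII, the calls depended on the control used. 4SU alone gave 176 higher and 82 lower, 6SG alone 241 and 68, edgeR 100 and 68, DESeq2 1 and 0, and leaving out a PHC1 replicate 0 and 0. RNAPII against RNA gave 147 higher and 155 lower with 4SU alone, 91 and 229 with 6SG alone, 7 and 16 without a filter, 4 and 4 without the deepest cluster, 2 and 1 by cluster number, and 0 and 0 without either RNA replicate. No paired analysis was possible because, in the comparisons with RNAPII, both RNAPII libraries carry the number 1, so fewer than 2 numbers are shared.

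The mean of the PHC1 medians before the midpoint, 71.2%, became 73.7% by coverage, 70.4% on both strands, 70.5% on RefSeq strands and 72.1% in members with H3K4me3 (the last 2 added after seeing the data), with 4SU between 53.6% and 56.2%. Leaving out a PHC1 replicate gave 70.9% to 71.5%. H3K27me3 at 3 times the input left 7 of 44 members. Few reads per start limit single ChIP ratios, and the 1696 clusters of the 6SG library limit its values.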
